A study of Homo sapiens with 4 samples.

Results

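Histone cluster genes were examined in MCF10A cells, a human mammary epithelial line, of which 2 control arrays and 2 arrays labelled double knockdown were measured. The members are the genes that carry, or once carried, a histone cluster symbol (older symbols beginning HIST1 to HIST4, current symbols H1-1 to H1-6 and the numbered H2AC, H2BC, H3C and H4C series) and that have a probe set naming that gene alone. There were 45 such genes among 19775 genes in all: 6 of class H1, 9 of H2A, 13 of H2B, 8 of H3 and 9 of H4. Each was represented by its brightest probe set. H2AC5P and H4C10P are pseudogenes and were kept because the rule includes them.

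The control cells carried a control short hairpin RNA, and the other cells carried hairpins against CBL and CBLB, ubiquitin ligases best known for tagging receptor tyrosine kinases after activation. All cells were grown in the medium DFCI-1 and harvested under normal growth, and RNA was labelled with biotin without amplification. The series describes the samples as duplicates. Neither the source of the duplicates (1 culture or separate ones) nor the vector, nor whether a line was 1 clone, is given, so every p-value here reflects array-to-array spread that may be technical. The labels name no batch. CBL had a log2 change of -1.37 on its brightest probe set (adjusted p = 0.00139 by limma), while CBLB was higher by 0.45 (adjusted p = 0.0148). Other CBL probe sets above the brightness minimum had smaller changes, of -0.33 and -0.20, and another CBLB probe set had 0.40. For CBLB the transcript thus went against the label, and directions below are those of the arrays labelled double knockdown. Array medians lay between 14.5 and 14.7. The 6 measured markers of mammary epithelium were all above the brightness minimum in the series, and their summed intensity was 27210 and 27280 on the control arrays and 16550 and 16270 on the double knockdown arrays, where KRT14 and KRT5 were lower and KRT18 and EPCAM higher. Leukocyte markers summed to 44.4 to 48.3 on every array, with PTPRC and LYZ at most 7.01. Of these 4 markers 2 were above the minimum, CD3E at 17.9 to 19.1 and HLA-DRA at 16.9 to 18.7, and neither was called. Of 8 endothelial and fibroblast markers 4 were above the minimum, the list summed to 353.8 and 358.4 on the control arrays and 274.7 and 276.7 on the others, and CDH5 and KDR were at most 5.12. The fibroblast gene DCN read 127.9 and 126.9 against 54.9 and 77.9, and its part in the histone values was not tested.

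Histones are the proteins on which DNA is wound: pairs of H2A, H2B, H3 and H4 form the nucleosome core and H1 binds the linker DNA. Each cluster protein is encoded by many nearly identical genes, most of them in one large cluster and a few smaller ones. Cells make these mRNAs mainly in S phase, and the transcripts end in a stem-loop bound by SLBP in place of a poly(A) tail, although some cluster genes can also give polyadenylated mRNA. Because the genes are so alike, probe sets can cross-react, so a value stands for its probe set and not surely for 1 gene.

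Most cluster genes were dim. Whether the labelling captured mRNA without a poly(A) tail was not tested, so a dim value need not mean little histone mRNA. Of the 45 members, 19 reached the brightness minimum for testing, a mean intensity of 14.7, which is the median over all probe sets. That is 42.2% of the members against 65.5% of all genes with a probe set of their own. The 45 members had 51 such probe sets, and all 19775 genes had 41091. The brightest was thus taken from fewer per gene among the members, and the 2 shares are not fully alike. The share tested was 7 of 9 for H2A, 5 of 13 for H2B, 2 of 6 for H1, 3 of 8 for H3 and 2 of 9 for H4. Only 10 members had a mean of at least 50 and only 2, H2BC12 and H2AC25, a mean of at least 1000. The dimmest tested member was H2AC17, at 15.2, and the brightest one left out was H4C8, at 12.9. The 26 members left out had means of 4.67 to 12.9. Without the filter, their log2 changes ran from -0.17 to 0.08, and the smallest unadjusted limma p among them was 0.0721.

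**Figure D1:**
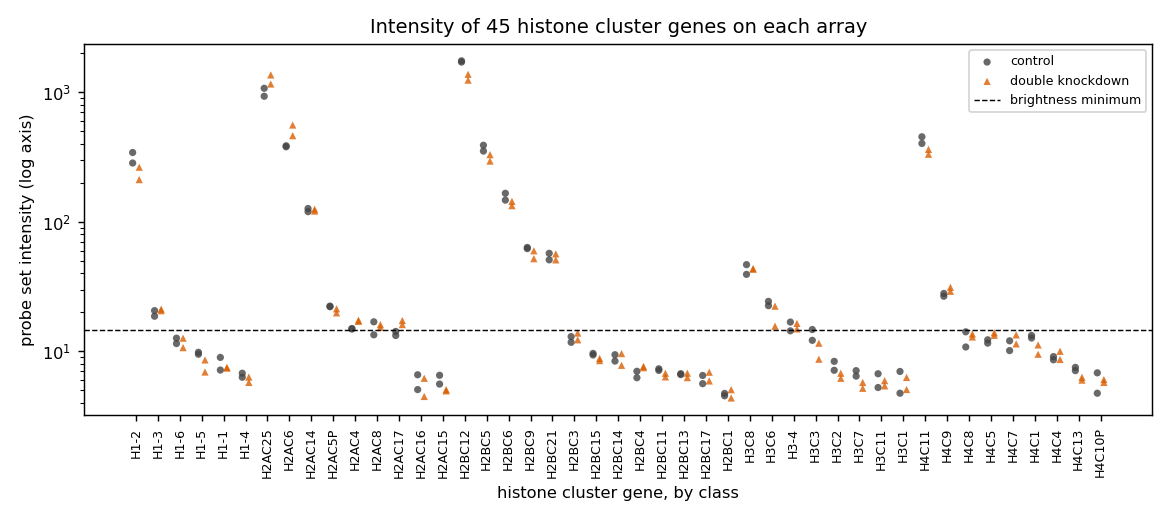
Intensity of the brightest probe set of each of the 45 histone cluster genes (log axis) on the 2 control arrays (circles) and the 2 double knockdown arrays (triangles), ordered by class and brightness. The dashed line is the brightness minimum of 14.7, which 19 genes reached, and H2BC12 and H2AC25 stand highest.

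Promoter sequence is a property that the choice of genes did not use. RefSeq promoters of the GRCh38.p14 assembly were found for 41 of the 45 members, and the 250 bases before the transcription start were searched on both strands. For genes with several listed starts the first was taken. The CCAAT box stood in 36 of 41 member promoters (87.8%) against 33.0% of all 27305 promoters. It was in every H1, H2A, H2B and H3 promoter searched but in only 2 of 7 H4 promoters (28.6%). The TATA box letters TATAAA stood in 28 (68.3%) against 11.1%. The octamer ATTTGCAT, which POU-family factors bind in H2B promoters, stood in 10 of 13 H2B and 6 of 8 H2A promoters and in no H1, H3 or H4 promoter, against 1.66% of all promoters. The letters AAACACA of the H1 box stood in all 6 H1 promoters and in no other member promoter, against 4.95% of all. No matches of different motifs shared a base in the members, as they did in 62 of all promoters.

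The 200 bases before the start are shown for both called genes, for another bright tested member of each of their classes and for the main H1 gene, so that the shared elements can be seen. Capitals mark matches of these 4 motifs on either strand. The H2BC12 stretch is chr6:27146859-27147058 on the minus strand, that of H2BC5 is chr6:26157921-26158120 on the plus strand, that of H2AC6 is chr6:26123972-26124171 on the plus strand, that of H2AC25 is chr1:228457874-228458073 on the minus strand and that of H1-2 is chr6:26056471-26056670 on the minus strand, all in GRCh38.p14.
H2BC12: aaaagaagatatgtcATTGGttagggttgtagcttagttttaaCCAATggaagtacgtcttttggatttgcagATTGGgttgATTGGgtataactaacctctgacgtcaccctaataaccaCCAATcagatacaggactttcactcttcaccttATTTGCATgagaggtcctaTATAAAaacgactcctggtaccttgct
H2BC5: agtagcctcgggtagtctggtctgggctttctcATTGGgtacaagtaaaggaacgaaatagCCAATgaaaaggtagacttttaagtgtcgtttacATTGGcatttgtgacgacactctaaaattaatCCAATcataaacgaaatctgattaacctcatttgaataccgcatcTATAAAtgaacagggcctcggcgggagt
H2AC6: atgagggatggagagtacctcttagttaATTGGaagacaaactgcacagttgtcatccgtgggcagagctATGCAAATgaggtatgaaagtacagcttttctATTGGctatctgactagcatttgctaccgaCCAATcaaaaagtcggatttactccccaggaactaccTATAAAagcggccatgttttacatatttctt
H2AC25: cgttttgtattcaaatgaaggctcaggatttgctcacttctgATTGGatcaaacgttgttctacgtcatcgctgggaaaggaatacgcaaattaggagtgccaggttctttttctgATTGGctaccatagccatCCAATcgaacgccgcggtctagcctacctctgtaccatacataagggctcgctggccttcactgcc
H1-2: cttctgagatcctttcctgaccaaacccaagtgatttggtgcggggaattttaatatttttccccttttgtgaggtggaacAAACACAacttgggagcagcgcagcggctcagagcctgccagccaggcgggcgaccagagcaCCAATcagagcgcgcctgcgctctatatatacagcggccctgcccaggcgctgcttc
H2BC12, which was lower, and H2AC6, which was higher, both hold the octamer, 5 and 3 CCAAT matches and 1 TATAAA within these stretches. In H2BC12 the octamer begins 46 bases before the start, on the gene's strand, and in H2AC6 130 bases before it, on the other strand. H2AC6 lies next to H2BC4 in the order of protein-coding genes, and whether they share this stretch was not examined. H2BC5 and H2AC25 hold no exact octamer. A match is only a run of letters, and no match says nothing about binding.

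Values were compared as log2(intensity + 16), and all log2 and fold changes below are on that scale, double knockdown minus control. Across the tested members, 1 gene was called higher and 1 lower at an adjusted p under 0.05 by limma. H2AC6, an H2A gene, was higher, and H2BC12, an H2B gene, was lower. That is 2 of 19, where 16% of all 12951 genes tested were called, 9.41% higher and 6.60% lower, so the members' share was near the background. In bulk RNA, fewer cells in a phase and less RNA per cell cannot be told apart. At an unadjusted p under 0.05, 6 of the 19 passed, against 30.6% of all genes. Over the 19 tested members, the median absolute log2 difference between the 2 arrays of a group was 0.0794 in the control pair and 0.0990 in the other. The median log2 change of the 19 was -0.0014, against -0.01 for all genes tested. No single direction described the family: 9 members had a positive and 10 a negative change, and 13 of the 19 changed by less than 0.2 in size. The groups did not overlap for 13 members, 5 of them higher and 8 lower, where 57.5% of all genes did not overlap, 28.1% higher and 29.3% lower.

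Of the 5 tested H2B genes, 1 was called, and it was lower. H2BC12, formerly HIST1H2BK, was the brightest member of the family. It read 1714 and 1752 on the control arrays and 1243 and 1379 on the double knockdown arrays, so both double knockdown arrays were below both controls. The mean fell from 1733 ± 26.7 (SD, n = 2) to 1311 ± 95.9 (n = 2), a log2 change of -0.40 ± 0.09 (SE) or 1.32-fold (adjusted p = 0.0244 by limma). The call was lost whichever single array was left out, with limma's adjusted p at 0.0533 without control replicate 1, 0.0588 without control replicate 2, 0.205 without double knockdown replicate 1 and 0.0891 without double knockdown replicate 2. It was also lost with a constant of 1 added before the logarithm (0.0550).

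The other 4 tested H2B genes were not called. H2BC5, formerly HIST1H2BD, read 352 and 391 on the control arrays against 295 and 330.4, with a log2 change of -0.24 ± 0.10 (95% interval -0.47 to -0.01, adjusted p = 0.150 by limma). Its second probe set read 282 and 301 against 227 and 246, so the groups were apart on both. H2BC6 read 147 and 166 against 133 and 144 (log2 change -0.16 ± 0.10, adjusted p = 0.320 by limma), with a change of -0.08 without control replicate 2 and -0.24 without control replicate 1. H2BC9 read 63.4 and 62.2 against 52.0 and 59.8 (-0.13). For both, the double knockdown pair lay below the control pair. H2BC21, formerly HIST2H2BE and the one tested H2B gene outside chromosome 6, had overlapping groups, at 57.2 and 50.9 against 50.9 and 56.6, and a 95% interval of -0.22 to 0.21. All 5 changes were negative, 1 of them called, where 6740 of all 12951 genes tested were negative and 6.60% were called lower. The median log2 change of the 5 genes was -0.16. Over all 13 H2B genes, dim ones included, it was -0.01, and H2BC12 was the 1 tested H2B gene left once probe sets ending in _s_at or _x_at, which can match several transcripts, were set aside. Both probe sets of H2BC5 and those of H2BC6 and H2BC9 are of the type that can match several transcripts. These genes may therefore not be separate measurements. H2BC12L is a close relative that the rule leaves out and that was named after its values were seen. It read 394 and 440.5 against 296 and 347 (log2 change -0.36, unadjusted p = 0.0192 by limma). Its probe set is of the same type, so it may not be separate from the H2B members either.

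Of the 7 tested H2A genes, 1 was called, and it was higher. H2AC6, formerly HIST1H2AC, read 379.9 and 387 on the control arrays and 463 and 559.6 on the double knockdown arrays. Both of the latter exceeded both controls and differed from each other more than the controls did. The mean rose from 383 ± 4.91 (SD, n = 2) to 511 ± 68.2 (n = 2), a log2 change of 0.39 ± 0.11 (SE) or 1.31-fold (adjusted p = 0.0434 by limma). The call was lost whichever array was left out, with limma's adjusted p at 0.110 without control replicate 1, 0.0839 without control replicate 2, 0.0590 without double knockdown replicate 1 and 0.323 without double knockdown replicate 2, where the log2 change was 0.53 and 0.26 for the last 2. It was also lost in 4 of the other settings, given in the closing section. The only probe set of H2AC6 is of the type that can match several transcripts. So are those used for H2AC14, H2BC21, H3C8 and H4C11, and 8 tested members in all have such a probe set.

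H2AC25, formerly HIST3H2A and the brightest H2A member, read 934 and 1076 against 1161 and 1364. The groups did not overlap, but the change of 0.32 ± 0.11 on the log2 scale was not called (95% interval 0.06 to 0.59, adjusted p = 0.0953 by limma). It was 0.21 without double knockdown replicate 2. Its second probe set, at 28.7 and 31.2 against 29.6 and 26.8, had a change of -0.06, and with both averaged the change was 0.13. H2AC14 was level, at 119.9 and 127 against 121 and 125, with a 95% interval of -0.20 to 0.20. The other 4 tested members of the class, H2AC4, H2AC5P, H2AC8 and H2AC17, had means of 15.2 to 21.4, near the brightness minimum, and changes of -0.06 to 0.14. Over the 7 tested H2A genes, 5 changes were positive, 2 negative and 1 called. Among all 12951 genes tested, 6211 were positive and 9.41% were called higher. The median log2 change of the 7 was 0.10. Over all 9 H2A genes, dim ones included, it was 0.03. Whether H2A and H2B genes differ as classes was not tested, since the members were chosen with results of these arrays known.

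**Figure D2:**
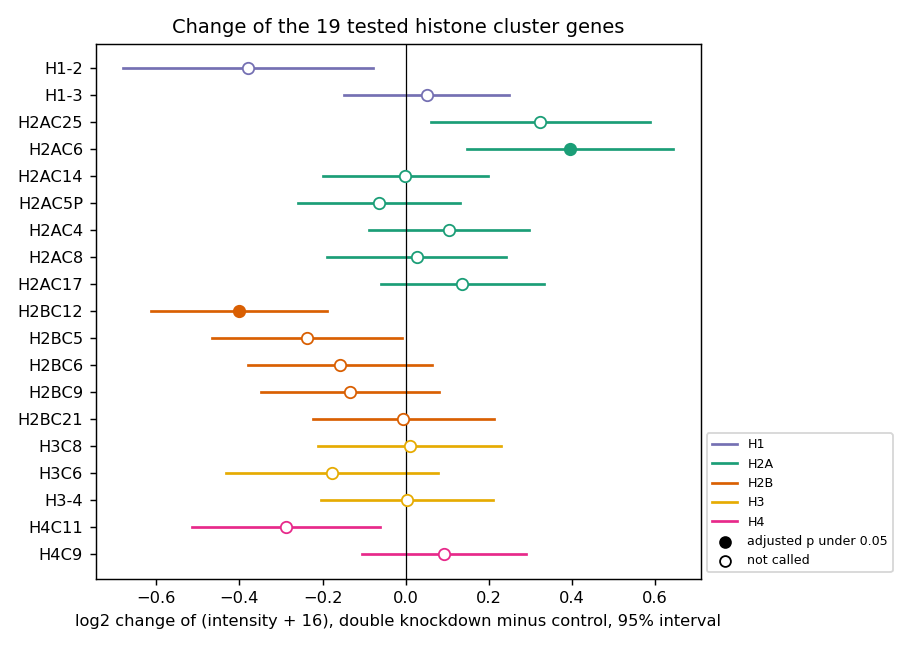
Log2 change of intensity + 16 (double knockdown minus control) with its 95% interval from limma for the 19 tested histone cluster genes, coloured by class, n = 2 arrays per group. Filled points passed the test: H2BC12 at -0.40 and H2AC6 at 0.39.

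No tested linker histone or H4 gene was called. H1-2, formerly HIST1H1C and the only H1 gene well above the minimum, read 285 and 343 against 212 and 264. The groups did not overlap, yet each pair was wide, and the log2 change of -0.38 ± 0.13 was not called (95% interval -0.68 to -0.08, adjusted p = 0.0890 by limma). The change was -0.23 without double knockdown replicate 1 and -0.25 without control replicate 2. H1-3, at 18.7 and 20.6 against 20.6 and 21.2, had a change of 0.05. H4C11 read 403 and 454 against 333 and 363, with a change of -0.29 ± 0.10 (95% interval -0.51 to -0.06, adjusted p = 0.0867 by limma). H4C9 read 26.6 and 28.0 against 31.3 and 29.1, a change of 0.09. By limma, 0 of 2 tested H1 and 0 of 2 tested H4 genes passed, and 1 of each class had an unadjusted p under 0.05. Over all genes tested, 16% were called and 30.6% had an unadjusted p under 0.05.

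The H3 genes, whose tails carry many of the known chromatin marks, were all dim, and 3 were tested. H3C8 read 39.3 and 46.7 against 43.1 and 43.5, and its 95% interval was -0.21 to 0.23. H3C6 read 22.5 and 24.3 against 22.3 and 15.6, so its change of -0.18 ± 0.11 (adjusted p = 0.328 by limma) came mostly from 1 array, without which (double knockdown replicate 2) it was -0.04. H3-4, a testis histone formerly named HIST3H3, had a change of 0.00. None of the 3 was called by limma, and none had an unadjusted p under 0.05, against 16% and 30.6% of all genes tested.

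A further 20 probe sets name several histone cluster genes and so belong to no single member. The brightest names H2AC18 and H2AC19 together and read 2463 and 2627 on the control arrays against 2913 and 3153, a log2 change of 0.25 ± 0.09 (adjusted p = 0.103 by limma, in a fit that added such probe sets). A second probe set of that pair read 683 and 800.2 against 852 and 1009, and the remaining one, near the brightness minimum, had a change of -0.15. A probe set naming 14 H4 genes was level at 2131 and 1972 against 2067 and 1939 (log2 change -0.03), while dimmer ones for the same genes had -0.12 and 0.26. One naming H2BC4, H2BC6, H2BC7, H2BC8 and H2BC10 read 90.4 and 101 against 74.1 and 89.95 (-0.19 ± 0.11, adjusted p = 0.287 by limma). Counting every histone cluster probe set above the minimum, 8 of 12 for H2A genes were positive and 6 of the 12 had both double knockdown arrays above both controls. For H2B genes 8 of 9 were negative, and 6 of the 9 had both double knockdown arrays below both controls. Over all genes tested, 28.1% were apart higher and 29.3% lower, and several of these probe sets measure the same genes, so the counts are no result about a class. None of the 8 added groups of genes was called by limma, and 2 had an unadjusted p under 0.05. In the main fit these shares were 16% and 30.6% of all genes tested.

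**Figure D3:**
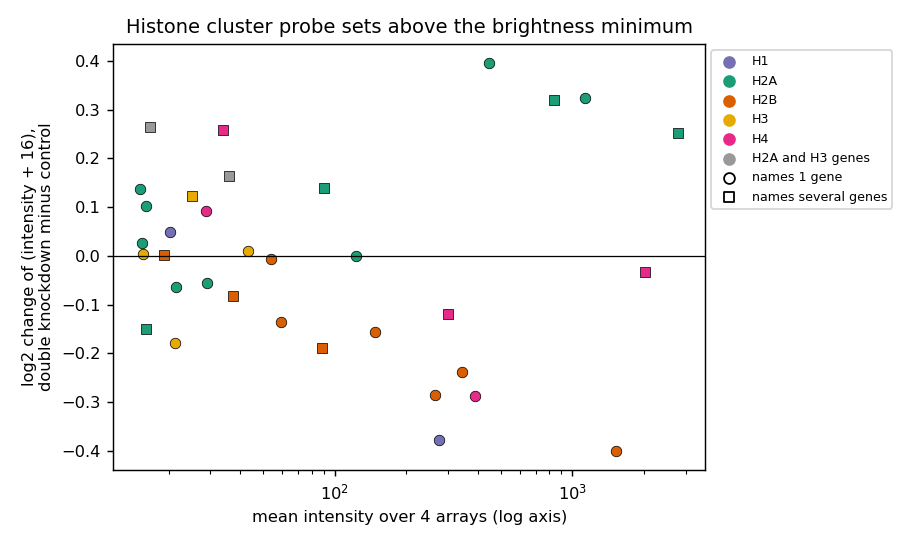
Log2 change of intensity + 16 (double knockdown minus control) against mean intensity over the 4 arrays (log axis) for each histone cluster probe set above the brightness minimum, coloured by class. Circles name 1 gene and squares several genes. H2A probe sets reach up to 0.39 and H2B probe sets down to -0.40.

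Changes of neighbouring tested members are given side by side, and no difference between them was tested. Of the protein-coding members, 40 lie on chromosome 6 and 3 on chromosome 1 by the order of the RefSeq gene table. The next protein-coding gene after H2BC12 is H4C9, whose change was 0.09, against -0.40 for H2BC12. H2BC5 and H2BC6, which follow one another, had changes of -0.24 and -0.16. H2AC25 lies next to H3-4, which was level at 16.8 and 14.4 against 16.4 and 14.9. In the remaining pairs, H2BC9 and H3C8 had changes of -0.13 and 0.01, H2AC8 and H3C6 of 0.03 and -0.18, and H3C6 and H1-3 of -0.18 and 0.05.

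Histone variants outside the clusters, some of which cells make throughout the cycle and as polyadenylated mRNA, were set beside the members. The timing of each variant in the cycle was not examined here. Of 9 tested, 1 rose and 2 fell, with a median log2 change of -0.12, where 9.41% of all genes tested were called higher and 6.60% lower. CENPA, the H3 variant of centromeres, rose 1.51-fold, from 77.7 and 91.3 to 145 and 127 (adjusted p = 0.00985 by limma). H2AX, the variant phosphorylated at DNA breaks, fell 1.27-fold, from 425 and 383 to 306 and 325 (adjusted p = 0.0452 by limma), and MACROH2A2 fell 1.30-fold (adjusted p = 0.0271 by limma). The other 3 probe sets of H2AX, all dim, had changes of 0.04, 0.11 and -0.18, and with its probe sets averaged the change was -0.09 (adjusted p = 0.309 by limma). The H2AX call was also lost with a constant of 1 (0.0828), no brightness filter (0.0682) and cyclic loess normalization (0.0525). The variant H3.3, from H3-3A and H3-3B, has 1 dim probe set naming H3-3A alone, at 34.9 and 29.9 against 33.6 and 20.6, which was not called (log2 change -0.18, adjusted p = 0.456 by limma). Of 8 bright probe sets that name both genes, 4 that also name a pseudogene had changes of -0.06 to -0.12, and 4 that also name a microRNA -0.31 to -0.40. By limma, unadjusted p was 0.105 to 0.251 for those with the pseudogene and 0.00142 to 0.0124 for those with the microRNA. These probe sets name several genes, so they were in no fit that gave an adjusted p. H2AZ1, which replaces H2A at promoters, read 4930 and 4938 against 4406 and 4193 and was not called (log2 change -0.20, adjusted p = 0.161 by limma). CENPA lost its call without double knockdown replicate 1 (adjusted p = 0.0834 by limma), and MACROH2A2 (up to 0.215) and H2AX (up to 0.267) lost theirs without control replicate 1 or either double knockdown array.

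Of 26 tested factors that make and process histone mRNA, 4 fell and 2 rose, where 6.60% of all genes tested were called lower and 9.41% higher, and their median log2 change was -0.11. SLBP, the stem-loop binding protein, read 724 and 746 on the control arrays against 536 and 512, a 1.39-fold fall (log2 change -0.48 ± 0.09, adjusted p = 0.0104 by limma). CCNE2, a cyclin whose kinase activates NPAT, fell 1.84-fold from 51.2 and 63.3 to 25.03 and 22.3 (adjusted p = 0.00196 by limma). SRRT, of the cap-binding complex, fell 1.36-fold and CSTF2, a subunit of the cleavage machinery, 1.30-fold. XRN1, an exonuclease that degrades mRNA, rose 1.30-fold, and ZNF473, a partner of the U7 particle that processes histone mRNA, 1.36-fold. NPAT, the coactivator of histone gene transcription, was level at 102 and 115 against 106 and 107, with a log2 change of -0.02 ± 0.09. CCNE2 passed in each of the 4 fits that left out an array. SLBP (up to 0.107), SRRT (up to 0.148) and XRN1 (up to 0.172) lost theirs without either double knockdown array, CSTF2 (up to 0.188) without these or control replicate 2, and ZNF473 (up to 0.265) without these or control replicate 1. With probe sets averaged, SRRT (adjusted p = 0.0875 by limma), CSTF2 (0.0560) and ZNF473 (0.0971) lost their calls, and ZNF473 lost its call in 4 more settings (up to 0.110).

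Of 28 tested genes listed as histone chaperones and partners, which carry histones to and from DNA, 5 fell and 1 rose, at a median log2 change of -0.21. Over all genes tested, 6.60% were called lower and 9.41% higher. The 28 include SPTLC2, which is not a histone chaperone and was matched through the older symbol SPT2. Its log2 change was 0.11, and it was not called. HAT1, which acetylates new H4, fell 1.41-fold from 489 and 535 to 360.3 and 355 (adjusted p = 0.0105 by limma). CHAF1A and CHAF1B, subunits of the assembly factor that follows the replication fork, fell 1.35-fold and 1.26-fold. HIRA, which deposits the variant H3.3, fell 1.44-fold and SUPT16H, of the FACT complex, 1.28-fold. MIS18A, which primes centromeres for CENPA, rose 1.33-fold. Each of these 6 lost its call without at least 1 array: HAT1 without either double knockdown array (up to 0.0924), HIRA without control replicate 1 or double knockdown replicate 2 (up to 0.247), CHAF1A (up to 0.173) and MIS18A (up to 0.205) without control replicate 1 or either double knockdown array, SUPT16H without control replicate 2 or either double knockdown array (up to 0.249), and CHAF1B whichever array was left out (up to 0.270). With probe sets averaged, HIRA (adjusted p = 0.118 by limma), SUPT16H (0.220), CHAF1A (0.0645) and MIS18A (0.0560) lost their calls.

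Cell cycle lists are given because cluster histone mRNA follows S phase. Beside each count below, 9.41% of all genes tested were called higher and 6.60% lower. Of 40 S phase genes tested, which include SLBP and CCNE2, 16 fell and 2 rose, at a median log2 change of -0.28. The helicase subunits MCM6, MCM3 and MCM2 fell 2.78-fold, 1.97-fold and 1.73-fold. DTL, which targets replication factors for destruction, fell 2.14-fold, UHRF1, which keeps DNA methylation, 2.04-fold and PCNA, the polymerase clamp, 1.83-fold. All 6 were called with any one array left out. Of 25 genes of G2 and mitosis 10 rose and none was called lower by limma (1 lower at an unadjusted p under 0.05), at a median of 0.31. The kinetochore proteins CENPE and CENPF rose 1.95-fold and 1.75-fold and UBE2C, a ubiquitin carrier of mitosis, 1.57-fold, each called with any one array left out. The spindle checkpoint kinases TTK and BUB1 rose 1.54-fold and 1.52-fold, calls lost without double knockdown replicate 1 (0.0621) and 2 (0.0627) respectively, and BUB1 was not called with probe sets averaged (0.0799). CDC20, the activator that ends metaphase, rose 1.26-fold and lost its call with any array left out (up to 0.243). Of 13 genes of G1 arrest and quiescence 2 rose and 4 fell, at a median of -0.09. CCNG2, an atypical cyclin of resting cells, rose 1.51-fold and CDKN1B, which encodes the inhibitor p27, 1.27-fold, while TOB1, FOXO1, SESN1 and FOXO3 fell 1.37-fold to 1.49-fold. All 6 lost their call without at least 1 double knockdown array (up to 0.224). The 5 tested cluster genes that are known to give polyadenylated transcripts, H1-2, H2AC6, H2BC5, H2BC12 and H2BC21, held both called members and had a median of -0.24. The part of S phase share or of transcript ends in the histone values was not tested.

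**Figure D4:**
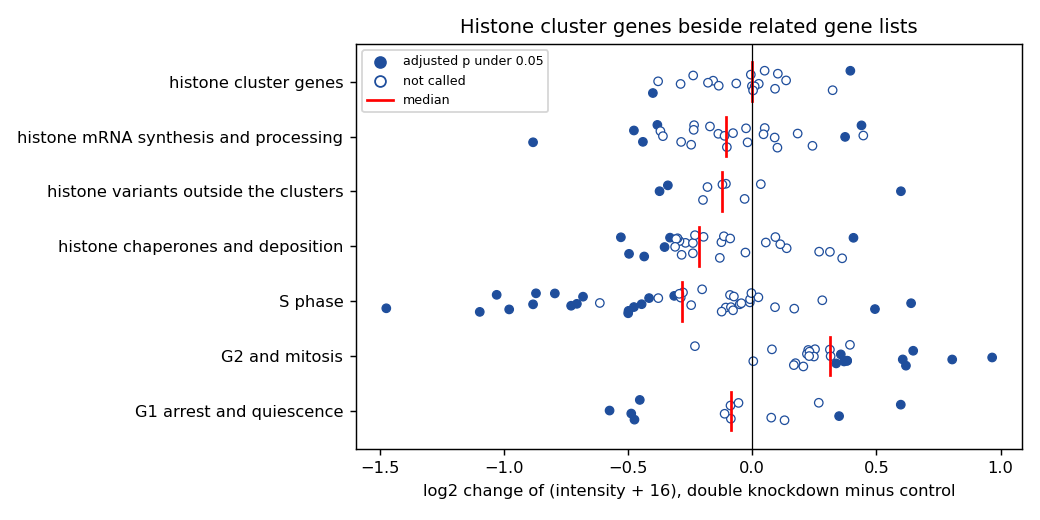
Log2 change of intensity + 16 (double knockdown minus control) of each tested gene, for the histone cluster genes and 6 related lists, with filled points for genes called at an adjusted p under 0.05 by limma and a red bar at the median. The bar of the histone cluster genes lies at 0, that of the S phase list at -0.28 and that of G2 and mitosis at 0.31.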

How the data were processed

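RNA of 4 MCF10A samples was measured on Affymetrix U133 Plus 2.0 arrays, and samples were grouped by their titles. Per the file headers and their range, the deposited table holds 1 linear intensity per probe set. The authors' summarisation and normalization are not given in the sources used here, and no scanner values were used. Of 54675 probe sets, 62 controls were left out, 41091 named 1 gene, 1801 several and 11721 none in the platform annotation, and 41037 of those with 1 gene were matched to RefSeq symbols (GRCh38.p14). A gene was its brightest probe set, and 12951 genes with a mean of at least 14.7 were tested as log2(intensity + 16) with limma 3.58.1 under R 4.3.3 (eBayes after lmFit, two-sided, all 4 arrays, no covariate, Benjamini-Hochberg over all genes tested, threshold 0.05). On that scale the fold change of a dim gene comes out too small. With 2 arrays per group, their number limits the precision, and an exact permutation test could not reach the threshold. No test of gene sets was run. The fit was tested on simulated data in which 200 of 12951 genes were given a change. It called 10% of those with a log2 change of 0.4 and 100% of those with 1. A gene not called may therefore differ by 0.4. Fewer genes changed in the simulation than were called here, so these shares need not hold for the arrays.

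The members and lists were chosen with earlier results of these data known. The text names each called member, the brightest and most changed uncalled members (6 each), of each list up to 6 called genes or the 2 with the smallest p, and CBL and CBLB. Alternatives were other constants, filters, normalizations, probe set choices, a variance trend, a replicate block and leaving out each array.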

Additional observations from a re-analysis of the deposited data

How the results depend on the processing

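The 2 calls among histone cluster genes depended on the settings. With log2(intensity + 1) limma called 0 members and 0 of the 5 with known polyadenylated transcripts, H2BC12 at an adjusted p of 0.0550 and H2AC6 at 0.0787. With log2(intensity + 64), no brightness filter, all probe sets of a gene averaged, or no probe sets ending in _s_at or _x_at, it called 1 member and 1 of the polyadenylated list, H2BC12 each time, while H2AC6 had 0.0519, 0.0949 and 0.0517 in the first 3 and no probe set in the last. Leaving out an array gave 0 to 0 calls for the members and for that list (3 to 5 members at an unadjusted p under 0.05), 536 to 1995 over all genes, 9 to 18 for S phase, 4 to 10 for G2 and mitosis, 1 to 5 for G1 arrest, 0 to 6 for chaperones, 1 to 7 for histone mRNA factors and 0 to 3 for variants. The members' median log2 change then ran from -0.0547 to 0.0137, and it was -0.20 over the 8 members kept by the stricter brightness filter. H2AC14, at -0.0014, ran from -0.0373 to 0.0345 and was positive without control replicate 2 or double knockdown replicate 1. G2 and mitosis had 5 calls with log2(intensity + 1) and 6 without the brightness filter, and the histone mRNA list had 3 with probe sets averaged. H2BC12 stayed negative in 16 of 16 and H2AC6 positive in 15 of 15 alternatives that gave a value, called in 11 and 7 of them.

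The sample numbers are not said to pair arrays. Deviations of same-numbered arrays correlated at 0.24 over genes. With the replicate block 5 members were called, H2BC12, H2AC6, H1-2, H2AC25 and H4C11, and 10 chaperones. All alternatives named beforehand were run. Arrays centred, quantile or cyclic loess normalized, the variance trend, and no _x_at probe sets left the number of members called at 2.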
